A study of Mus musculus with 27 samples.

Results

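The autophagy and mitophagy genes described here are 10 of the 54532 genes in the deposited expression table. They were chosen by symbol, and each symbol matched 1 gene. They are Ulk1, Becn1, Map1lc3a, Map1lc3b, Gabarapl1, Sqstm1, Pink1, Bnip3, Fundc1 and Tfeb. All 10 passed the filter on low values that 14630 genes of the table passed.

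RNA was measured by bulk sequencing of polyadenylated transcripts from the tibialis anterior muscle of male C57BL/6 mice aged 8 weeks, after volumetric muscle loss, an injury in which a part of the muscle is cut out. The 27 samples fall into 5 uninjured controls, 5 samples from day 3 after injury, 6 from day 7, 6 from day 14 and 5 from day 21. The sources differ on whether 1 or both legs were injured, and the labels do not say whether samples are separate animals, so every p-value here measures spread between these samples only, which may be partly technical. The question is how the levels of these genes differ between injured muscle at each time and uninjured muscle, and between day 21 and day 3.

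Autophagy encloses parts of a cell in a membrane sac, the autophagosome, and delivers them to lysosomes for breakdown. A kinase complex starts the process, ATG8 proteins coat the membrane, and receptors tie cargo to that coat. Mitophagy is the form that removes mitochondria, and in skeletal muscle, a tissue rich in mitochondria, both forms are known to respond to exercise, fasting and loss of innervation.

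Expression is given as FPKM, fragments scaled to gene length and to sequencing depth, which allows levels of different genes to be set side by side. Reads assigned to genes ran from 14376395 to 24436763 per sample, with a median of 17398586. A change is a difference in log2(FPKM + 1) from limma, fitted over all 14630 genes, and was called at an adjusted p under 0.05. Each comparison with no injury uses the same 5 uninjured samples, so the 4 comparisons share their controls and are not independent of each other. Overlap of samples between groups is described for single genes. The share of all tested genes whose groups do not overlap is not given here.

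Some libraries stood apart from their labels. By their distance over all tested genes, 9 of the 27 samples lay nearer to another group than to their own. Day 3 replicate 5 lay nearest to day 7 (distance 47.1, against 62.3 to its own group), and day 7 replicate 5 lay nearest to day 3 (43.4, against 82.1). Counts below are given with and without this pair of libraries. The other 7 were day 7 replicates 3 and 6, day 14 replicates 1, 3 and 6, and day 21 replicates 3 and 5.

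Cell type markers moved with time as well. At day 3, 9 of 10 myofibre markers were lower than without injury, with a median log2 difference of −1.44. All 10 macrophage and monocyte markers were higher, with a median of 2.97. Over all tested genes 23.4% were called higher and 19.8% lower at that time. After the rescaling described below, 4 of the 10 myofibre markers were lower (median −0.62) and all 10 macrophage markers were higher (median 4.08). With quantile normalization 2 myofibre markers were lower (median −0.26) and all 10 macrophage markers were higher (median 2.79). The summed FPKM of the myofibre markers was 99184 to 117190 in the 5 uninjured samples and 24697 to 73085 at day 3, with Acta1 the most abundant marker over the 27 samples. The macrophage sum was 19.1, 25.03, 17.7, 23.6 and 26.0 without injury and 1436, 1011, 1995, 2173 and 327 at day 3, with Lyz2 the most abundant over the 27 samples. At day 7 it ran from 49.1 through a median of 261 to 2047, the highest in replicate 5. It was 46.7, 90.8 and 107 at the lowest, median and highest sample of day 14, and 48.0, 59.4, 52.5, 32.1 and 43.1 at day 21. No marker of either cell type was at 0 in every uninjured sample. Fewer cells of a type and less RNA per cell cannot be told apart in bulk tissue, and the part of these markers in the results below was not tested.

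The library size implied by the deposited FPKM was not the number of reads assigned to genes, but 0.747 to 1.48 times it, with a mean of 0.782 without injury and 1.25 at day 3. The total of each sample's FPKM also moved with time, with a mean of 680372 without injury and 386958 at day 3. After every sample was rescaled to a common sum of FPKM, the median log2 difference over all tested genes moved by 0.61, 0.55, 0.34 and 0.13 against no injury in order of time, and by −0.49 for day 21 against day 3. A common sum thus moves most genes the same way, so the members' values are also given relative to the median gene on that scale. Quantile normalization moved the same median by −0.13 at day 3.

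Without injury, the levels spanned from 4.30 to 408 FPKM. Pink1 was highest at 408 ± 70.9 (SD, n = 5), followed by Map1lc3a at 243 ± 45.4 and Sqstm1 at 200.5 ± 15.4, whose ranges over samples overlapped. Bnip3 stood at 47.9 ± 9.32 and Map1lc3b at 30.3 ± 2.98, and these ranges did not overlap. Gabarapl1 (21.3 ± 3.30) and Tfeb (16.4 ± 3.01) overlapped, as did Ulk1 (11.3 ± 1.21) and Fundc1 (11.1 ± 1.94). Becn1 was lowest at 4.30 ± 0.955. Among the transcripts for ATG8 proteins, Map1lc3a was above Map1lc3b and Gabarapl1 in every uninjured sample. The order of genes rests on the deposited gene lengths, such as 1181 bases for Map1lc3a, 7517 for Map1lc3b and 7065 for Becn1. Reads in the uninjured samples numbered 2678 to 5188 for Map1lc3a and 2439 to 4328 for Map1lc3b.

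**Figure D1:**
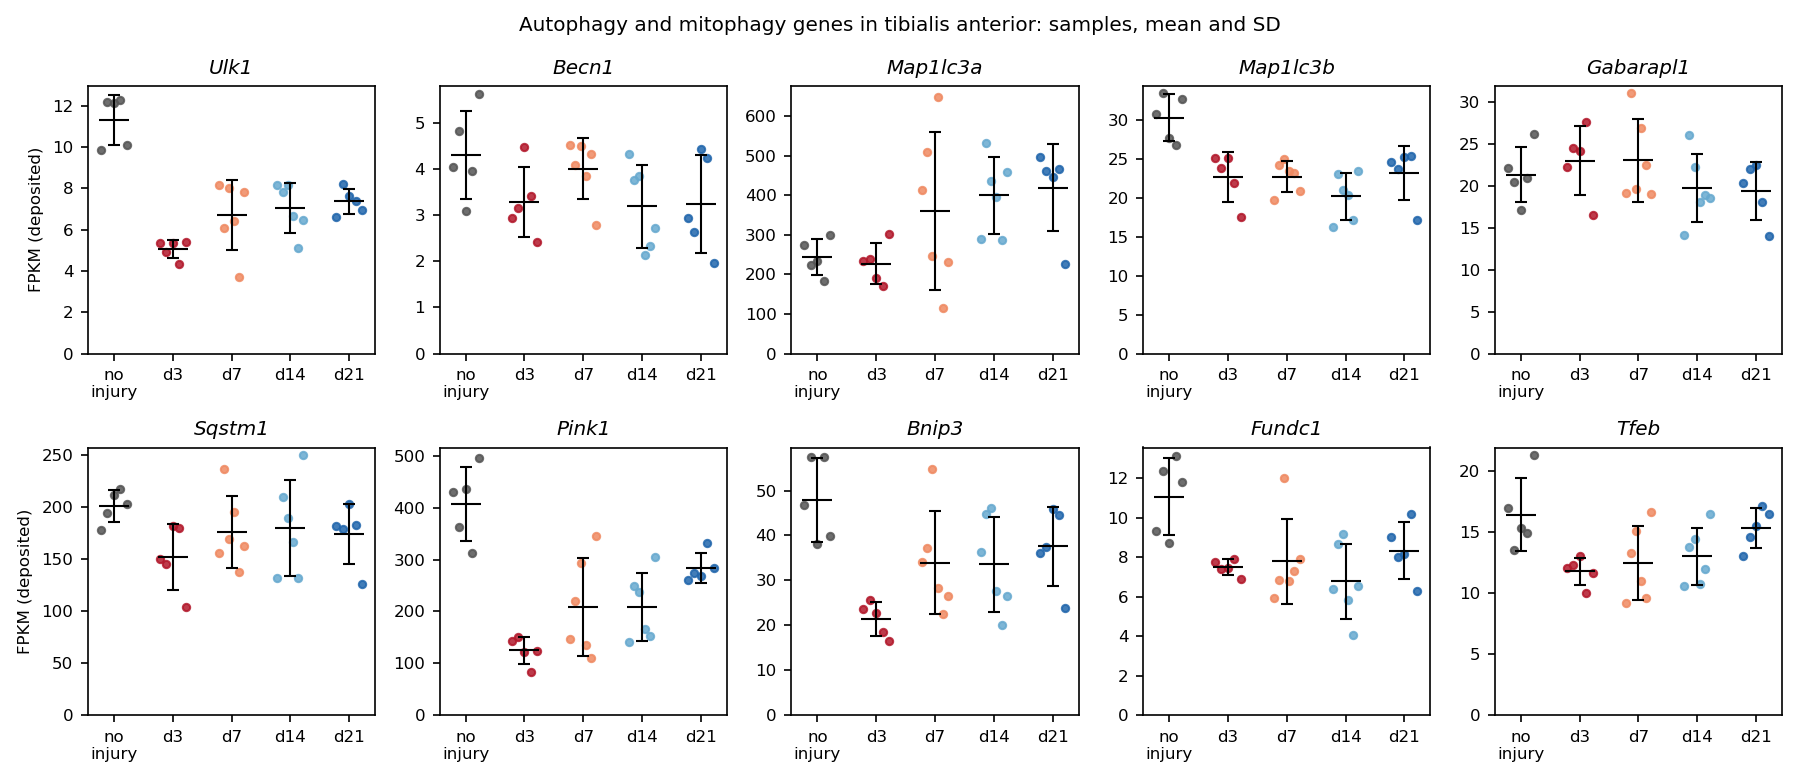
FPKM of each of the 10 genes in all 27 samples by group, with the group mean and SD, on a linear axis. Ulk1 and Map1lc3b were below every uninjured sample in all 22 injured samples on the deposited scale. The share of all tested genes that separate in this way is not given here. Map1lc3a was above every uninjured sample in 4 of 6 samples at day 14 and 4 of 5 at day 21. With a common sum the day 3 log2 difference of Map1lc3b is 0.40 in place of −0.41.

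At day 3, 6 of the 10 genes were called lower and none higher, while over all tested genes 43.2% were called, 23.4% higher and 19.8% lower. The median log2 difference was −0.43 over the 10 genes and 0.01 over all tested genes. Without day 3 replicate 5 and day 7 replicate 5, 5 of the 10 were called lower and none higher, beside 19.4% and 23.8% of all tested genes. On the common-sum scale, where 47.5% of all tested genes were called higher and 2.21% lower, 1 of the 10 was called lower (Pink1) and 1 higher (Gabarapl1). The median over the 10 then turned to 0.37, beside 0.62 over all tested genes. With quantile normalization, 6 were called lower and none higher, beside 25.5% and 18.96% of all tested genes.

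At day 7, 5 of the 10 genes were called lower and none higher, while over all tested genes 29.4% were called, 15% higher and 14.4% lower. The median over the 10 genes was −0.39, against 0.03 over all tested genes. Without the same pair of libraries 3 were called lower and none higher, beside 10.9% and 12.4% of all tested genes. With a common sum none was called lower and 2 higher (Map1lc3a and Gabarapl1), beside 43.6% of all tested genes called higher and 1.44% lower, and the median turned to 0.30, beside 0.58 over all. Quantile normalization gave 2 lower and none higher, beside 14.7% and 11.6%.

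At day 14, 4 of the 10 genes were called lower and none higher, while over all tested genes 20.3% were called, 9.02% higher and 11.3% lower. The medians were −0.45 over the 10 genes and 0.02 over all tested genes. Without the pair of libraries 4 were called lower and 1 higher (Map1lc3a), beside 12.4% and 11.6% of all tested genes. Rescaled to a common sum, 1 was called lower (Pink1) and 1 higher (Map1lc3a), beside 0.8% and 14.3% of all tested genes, and the median was −0.02, beside 0.36 over all. Quantile normalization gave 4 lower and 1 higher, beside 8.91% and 6.88%.

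At day 21, 1 of the 10 genes, Ulk1, was called lower and none higher by limma, and 4 had an unadjusted p under 0.05, as did 19.8% of all tested genes. Over all tested genes 3.43% were called, 1.74% higher and 1.69% lower, and the medians were −0.35 over the 10 genes and 0.01 over all. None of the 10 was called with a common sum, where 0.437% of all tested genes were higher and 0.0547% lower, nor with quantile normalization. For day 21 against day 3, 3 of the 10 were called higher (Ulk1, Pink1 and Bnip3) and none lower, beside 25.5% of all tested genes called, 9.23% higher and 16.2% lower. The median over the 10 was 0.28, which turned to −0.33 with a common sum, beside −0.49 over all. Without the pair of libraries 4 were called higher, the addition being Map1lc3a, beside 11.4% of all tested genes. Quantile normalization also gave 4 higher, beside 14.4%, and after rescaling to a common sum 1 was higher (Pink1) and 1 lower (Gabarapl1), beside 1.19% and 33.3% of all tested genes.

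**Figure D2:**
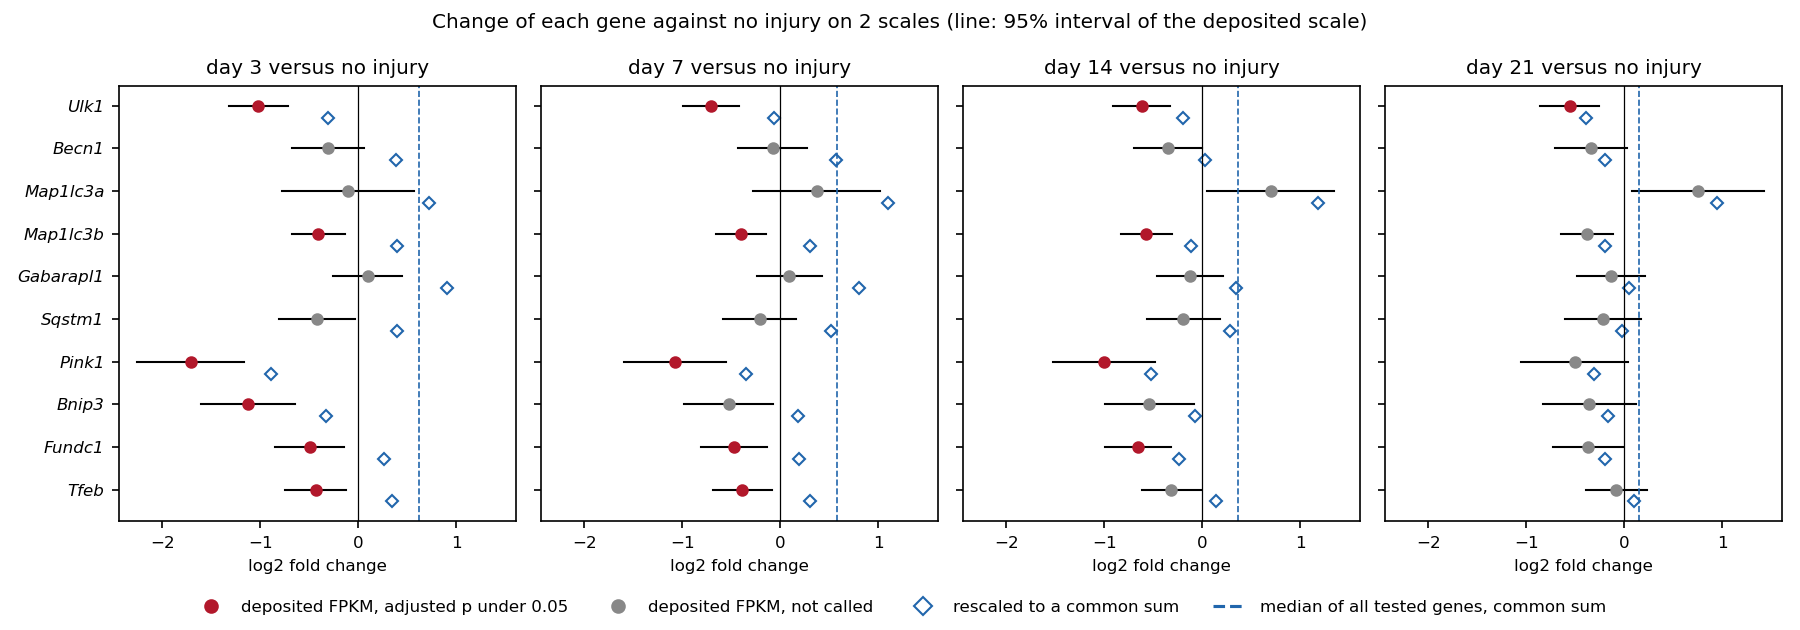
Difference in log2(FPKM + 1) of each of the 10 genes at each time against no injury, with 95% confidence intervals, from limma on the deposited scale. Pink1 had the lowest value at day 3, at −1.71, and was still −0.89 with a common sum, whereas the day 3 values of Map1lc3b, Fundc1, Tfeb, Sqstm1, Becn1 and Map1lc3a turn positive on that scale.

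Ulk1 and Becn1 act at the start of the pathway. Ulk1 (ENSMUSG00000029512, chr5:110784488-110810097, minus strand of GRCm38) encodes the kinase that starts autophagosome formation. Its FPKM was 9.85, 12.2, 12.1, 12.3 and 10.1 in the 5 uninjured samples and 5.34, 4.90, 5.33, 4.34 and 5.40 at day 3. At day 7 the lowest, median and highest samples were at 3.71, 7.12 and 8.16, and at day 14 at 5.10, 7.25 and 8.14. At day 21 the 5 samples were at 6.60, 8.22, 7.61, 7.41 and 6.97. Every injured sample at every time was below every uninjured sample, and the day 3 samples were also below every day 21 sample. How many of all tested genes separate in this way is not given here.

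Ulk1 fell by 1.02 on the log2 scale at day 3 (SE 0.15, adjusted p = 8.94e-06), to 0.493 times the uninjured level of FPKM + 1. The log2 difference was −0.71 at day 7 (adjusted p = 0.00093), −0.62 at day 14 (adjusted p = 0.00376) and −0.55 at day 21 (adjusted p = 0.0344). From day 3 to day 21 it rose by 0.46 (SE 0.15, adjusted p = 0.0216), a difference that turned to −0.08 with a common sum. On the common-sum scale the values against no injury kept their sign but none was called, at −0.31, −0.06, −0.20 and −0.39 in order of time. Relative to the median gene on that scale, the values were −0.93, −0.64, −0.56 and −0.54, and 0.41 for day 21 against day 3. Leaving out the pair of libraries, the day 3 difference was −1.04 and the day 21 difference −0.55 (adjusted p = 0.00849). The day 21 call of Ulk1 was lost with no filter (adjusted p = 0.0623), with quantile normalization (adjusted p = 0.117), with voom (adjusted p = 0.0561) and without any 1 of 8 samples.

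Becn1 (ENSMUSG00000035086, chr11:101285952-101302286, minus strand) encodes a subunit of the lipid kinase complex that acts after Ulk1. Its FPKM ran from 1.95 to 5.61 over the 27 samples, and no comparison was called. The log2 difference from no injury was −0.31, −0.08, −0.35 and −0.34 in order of time, and with a common sum the values were 0.38, 0.57, 0.03 and −0.20. Relative to the median gene on that scale they were −0.24, −0.01, −0.33 and −0.35. The groups overlapped throughout. Reads of Becn1 numbered 154 to 1062 per sample. A gene on the other strand, Cntd1, shares 10366 bases with it, and the libraries do not keep the strand, but Cntd1 had at most 8 reads in any sample.

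The ratio of Ulk1 to Becn1 within each sample does not depend on how samples are scaled. It was lower at day 3 than without injury by a log2 difference of −0.76 (exact permutation p = 0.0238, adjusted p = 0.0714 over 24 ratio tests) and by −0.70 at day 7 (exact p = 0.0476), neither of which passed the correction.

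Map1lc3a, Map1lc3b and Gabarapl1 encode ATG8 proteins, which are joined to lipid on the forming membrane and are bound there by cargo receptors. Map1lc3b (ENSMUSG00000031812, chr8:121590361-121598760, plus strand) had FPKM of 30.7, 33.5, 27.7, 26.7 and 32.7 without injury and 25.1, 23.8, 25.1, 21.9 and 17.5 at day 3. At day 7 the lowest, median and highest samples were at 19.7, 23.3 and 24.9, and at day 14 at 16.2, 20.6 and 23.5. Day 21 samples were at 24.6, 23.7, 25.2, 25.4 and 17.1. All 22 injured samples were below all 5 uninjured samples, and the injured groups overlapped each other. As for Ulk1, the share of all tested genes that separate in this way is not given.

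Map1lc3b differed from no injury by −0.41 at day 3 (SE 0.13, adjusted p = 0.0138), −0.40 at day 7 (adjusted p = 0.0186) and −0.57 at day 14 (adjusted p = 0.00306), while with a common sum the first and second turn positive, at 0.40 and 0.31, and the day 14 value is −0.11. At day 21 the value was −0.38 and was not called (adjusted p = 0.101). Relative to the median gene with a common sum the values were −0.22, −0.27, −0.47 and −0.34. Without the pair of libraries the day 3 call was lost (−0.32, adjusted p = 0.0522). The day 7 call was made in 9 of 11 alternatives and in 26 of 27 fits that each left out 1 sample. Over the alternatives other than the common sum, the day 7 value ran from −0.42 to −0.21. The end of the neighbouring gene Zcchc14, on the other strand, shares 58 bases with Map1lc3b and had at most 3.60 FPKM.

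Map1lc3a (ENSMUSG00000027602, chr2:155276297-155278073, plus strand) encodes another ATG8 protein. Its FPKM was 275, 223, 234, 184 and 300.1 without injury and 234, 238, 191, 170 and 303 at day 3. At day 7 the samples ran from 115 in replicate 5 through a median of 330 to 649.6, and at day 14 from 287 through 416 to 531. At day 21 they were at 496, 461, 446, 467 and 226. The day 14 and day 21 samples lay mostly above the uninjured range, with day 21 replicate 5 within it, and day 7 covered a wider range than any other group.

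Map1lc3a was 0.70 higher on the log2 scale at day 14 (SE 0.31, adjusted p = 0.114) and 0.75 at day 21 (SE 0.33, 95% interval 0.08 to 1.43, adjusted p = 0.201), neither of which was called. Among 11 alternatives day 14 was called in 5 and day 21 in 1, the fit with quality weights (0.92, adjusted p = 0.00321), which called 16.9% of all tested genes at day 21. Neither was called in any of the 27 fits that left out 1 sample. The day 3 and day 7 values were −0.11 and 0.37, and with a common sum the values were 0.72, 1.10, 1.18 and 0.95 in order of time (day 3 was also positive, at 0.18, with quantile normalization), with days 7 and 14 called (adjusted p = 0.0189 and 0.0318). Against the median gene on the common-sum scale they were 0.10, 0.52, 0.82 and 0.80. Without the pair of libraries the day 14 value of 0.70 was called (adjusted p = 0.0483), as was the difference of 0.97 between day 21 and day 3 (adjusted p = 0.0114). With all samples that difference was 0.86 (adjusted p = 0.0566), and it was called in 4 of 11 alternatives.

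Gabarapl1 (ENSMUSG00000030161, chr6:129533160-129542346, plus strand) ran from 14.1 to 31.0 FPKM, with group means between 19.4 and 23.03. No comparison was called on the deposited scale, where its log2 difference was 0.10, 0.09, −0.12 and −0.14 in order of time. After rescaling to a common sum the last pair turn positive, at 0.34 and 0.05 (day 14 also with quantile normalization, at 0.0905), and days 3 and 7 were called higher, at 0.91 (adjusted p = 0.0113) and 0.81 (adjusted p = 0.0214). On that scale 47.5% and 43.6% of all tested genes were called higher, and relative to the median gene Gabarapl1 was at 0.29, 0.23, −0.02 and −0.10 in order of time.

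The balance among the ATG8 transcripts was compared within each sample. The ratio of Map1lc3b to Map1lc3a in FPKM was 0.112, 0.150, 0.118, 0.145 and 0.109 without injury, and 0.107, 0.0999, 0.132, 0.129 and 0.0577 at day 3. At day 7 the lowest, median and highest were 0.0359, 0.0688 and 0.201, and at day 14 they were 0.0433, 0.0513 and 0.0594. Those of day 21 were 0.0496, 0.0514, 0.0566, 0.0543 and 0.0754. Every day 14 and day 21 sample was below every uninjured sample, and the highest day 7 ratio and lowest day 3 ratio both belonged to replicate 5.

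Of 24 tests of 6 gene pairs at 4 times, 5 passed the correction. Of these 5, 4 have Map1lc3a as denominator and share the 5 uninjured samples, so they are not independent of each other. The adjustment over 24 tests does not cover the choice of the 10 genes. The log2 ratio of Map1lc3b to Map1lc3a differed from no injury by −1.29 at day 14 (exact permutation p = 0.00433, adjusted p = 0.0381) and by −1.15 at day 21 (exact p = 0.00794, adjusted p = 0.0381), each the smallest exact p that the group sizes can give. It differed by −0.32 at day 3 (exact p = 0.214) and by −0.79 at day 7 (exact p = 0.117), and day 7 reached −1.08 with an adjusted exact p of 0.0381 without the pair of libraries. The ratio of Gabarapl1 to Map1lc3a was 0.0803, 0.0917, 0.0729, 0.114 and 0.0873 without injury. It was 0.0405, 0.0489 and 0.0659 at the lowest, median and highest of day 14, and 0.0411, 0.0477, 0.0503, 0.0388 and 0.0621 at day 21. At day 3 it was 0.0952, 0.103, 0.127, 0.163 and 0.0543, and at day 7 it ran from 0.0414 through 0.0702 to 0.196. No sample of day 14 or day 21 overlapped the uninjured range, while 2 samples of day 3 lay above it and replicate 5 below. The log2 difference was 0.21 at day 3 (exact p = 0.5) and −0.28 at day 7 (exact p = 0.494). It was −0.83 at day 14 (exact p = 0.00433, adjusted p = 0.0381) and −0.90 at day 21 (exact p = 0.00794, adjusted p = 0.0381). Scaling between samples does not enter these ratios. Each of the 4 passed in 17 of 27 runs that left out 1 sample, with an adjusted exact p of at most 0.0762. The ATG8 genes outside the 10, Gabarap and Gabarapl2, were not compared with Map1lc3a.

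**Figure D3:**
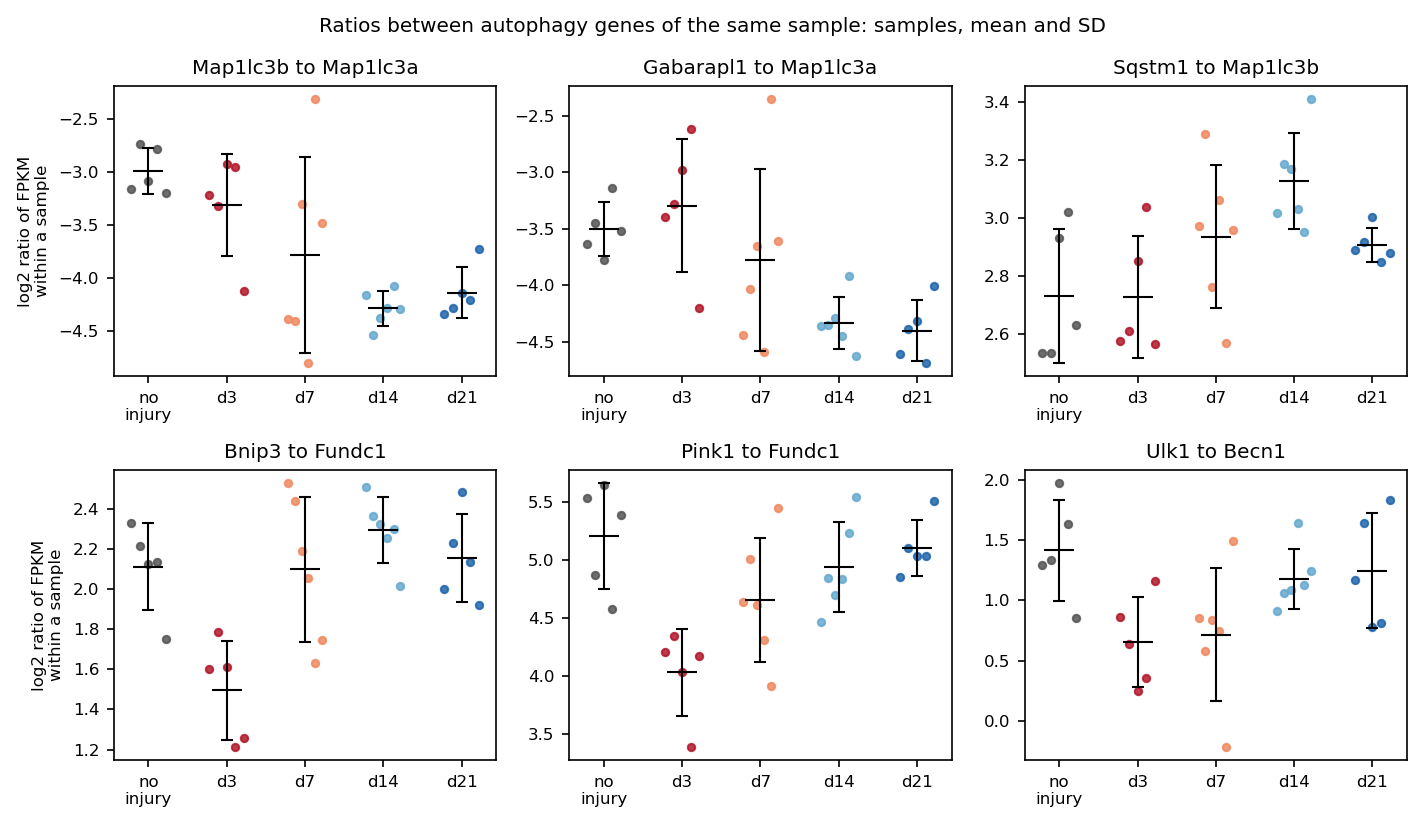
Log2 ratios within each sample for the 6 gene pairs, by group, with means; a ratio within a sample does not change with scaling between samples. The Map1lc3b to Map1lc3a ratio differed from no injury by −1.29 at day 14 and −1.15 at day 21, with no overlap between these groups and the uninjured samples.

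Sqstm1 (ENSMUSG00000015837, chr11:50199366-50210827, minus strand) encodes p62, a receptor that binds ubiquitin-tagged cargo and ATG8 proteins. Its FPKM ran from 103 to 249.6 over the 27 samples, and its group means were 200.5 without injury and 152, 176, 179 and 174 in order of time. No comparison was called with all samples, though day 3 was in 4 of 11 alternatives. Its log2 difference was −0.42 at day 3 (SE 0.19, adjusted p = 0.0744) and −0.21, −0.19 and −0.22 at the later times, and with a common sum the values were 0.40, 0.52, 0.28 and −0.02. Quantile normalization also turned days 7 and 14 positive, at 0.14 and 0.13. Against the median gene with a common sum Sqstm1 was at −0.22, −0.06, −0.08 and −0.17. Within samples, the log2 ratio of Sqstm1 to Map1lc3b was 0.40 higher at day 14 than without injury (exact p = 0.0130, adjusted p = 0.0519), which did not pass the correction. The gene Mrnip, on the other strand, shares 750 bases with Sqstm1 and had at most 1.56 FPKM.

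Pink1, Bnip3 and Fundc1 act in mitophagy. Pink1 (ENSMUSG00000028756, chr4:138313409-138326307, minus strand) encodes a kinase that builds up on damaged mitochondria and recruits the ubiquitin ligase parkin. Its FPKM was 430.0, 362, 436, 313 and 496 without injury and 144, 151, 122, 83.0 and 124 at day 3. Day 7 samples ran from 109.5 in replicate 5 through a median of 184 to 346 in replicate 6, and at day 14 from 141 through 202 to 306. At day 21 they were at 261, 275, 268, 332 and 285. The day 3 samples lay far below every uninjured and every day 21 sample, and 1 sample of day 7 and 1 of day 21 reached into the uninjured range.

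Pink1 fell by 1.71 on the log2 scale at day 3 (SE 0.26, adjusted p = 2.04e-05), to 0.305 times the uninjured level of FPKM + 1. With a common sum the day 3 value was −0.89 (adjusted p = 0.000358), which is −1.51 relative to the median gene, with −0.92, −0.89 and −0.46 at the later times. The difference was −1.07 at day 7 (SE 0.25, adjusted p = 0.00321) and −1.002 at day 14 (SE 0.25, adjusted p = 0.0077). After rescaling to a common sum these were −0.35 (not called) and −0.53 (adjusted p = 0.0461). At day 21 the value was −0.51 and was not called (adjusted p = 0.287), though it was in 3 of 11 alternatives. From day 3 to day 21 Pink1 rose by 1.20 (SE 0.26, adjusted p = 0.00164), and by 0.58 with a common sum (adjusted p = 0.0188). Without the pair of libraries the day 3 difference was −1.72 and the difference between day 21 and day 3 was 1.21.

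Bnip3 (ENSMUSG00000078566, chr7:138890836-138909519, minus strand) encodes a receptor in the outer mitochondrial membrane that binds ATG8 proteins. Its FPKM was 46.7, 57.5, 38.1, 57.5 and 39.8 without injury and 23.6, 25.6, 22.8, 18.4 and 16.5 at day 3. The lowest, median and highest samples were at 22.5, 31.2 and 54.7 at day 7 and at 20.0, 32.0 and 46.0 at day 14. Day 21 samples were at 36.2, 37.5, 45.8, 44.6 and 23.8. Day 3 did not overlap the uninjured range, while 1 sample of day 7, 2 of day 14 and 2 of day 21 lay within it.

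Bnip3 fell by 1.12 on the log2 scale at day 3 (SE 0.23, adjusted p = 0.000387). The day 7 and day 14 values were −0.53 (adjusted p = 0.0742) and −0.54 (adjusted p = 0.0837), each called in 3 of 11 alternatives, and with a common sum the day 7 value turned to 0.19 and the day 3 value was −0.33, not called. From day 3 to day 21 Bnip3 rose by 0.77 (SE 0.23, adjusted p = 0.0165), and with a common sum the value was 0.16, not called. Its values relative to the median gene on that scale were −0.95, −0.39, −0.44 and −0.31 against no injury, and 0.65 for day 21 against day 3.

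Fundc1 (ENSMUSG00000025040, chrX:17556564-17572325, minus strand) encodes another mitophagy receptor of the outer membrane. Its FPKM was 9.32, 12.4, 8.73, 13.1 and 11.8 without injury and 7.78, 7.43, 7.46, 7.93 and 6.89 at day 3. Day 7 samples ran from 5.92 through 7.08 to 11.999, and at day 14 from 4.07 through 6.47 to 9.18. At day 21 they were at 9.04, 8.01, 8.19, 10.2 and 6.28. All 5 day 3 samples were below the uninjured range, as were 5 of 6 at day 7, 5 of 6 at day 14 and 3 of 5 at day 21.

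Fundc1 differed from no injury by −0.49 at day 3 (SE 0.17, adjusted p = 0.0222), −0.47 at day 7 (SE 0.16, adjusted p = 0.0321) and −0.66 at day 14 (SE 0.16, adjusted p = 0.00732), while with a common sum days 3 and 7 turn positive, at 0.26 and 0.19, and day 14 is −0.24. Set against the median gene on that scale, the values were −0.35, −0.39, −0.60 and −0.35. The day 21 value was −0.37 and was not called. The day 7 call was lost without the pair of libraries (−0.46, adjusted p = 0.0599). It was made in 6 of 11 alternatives and in 20 of 27 fits that each left out 1 sample.

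Ratios of Pink1 and of Bnip3 to Fundc1 were tested at 4 times each, and 1 of these 8 tests passed. The ratio of Pink1 to Fundc1 in FPKM was 46.2, 29.2, 50.0, 23.9 and 41.9 without injury and 18.5, 20.3, 16.4, 10.5 and 18.03 at day 3. The lowest, median and highest were 15.04, 24.7 and 43.7 at day 7 and 22.1, 28.6 and 46.6 at day 14, and the day 21 samples were at 28.8, 34.3, 32.7, 32.7 and 45.3. Only the day 3 samples stood clear of the uninjured ones. The log2 ratio differed from no injury by −1.17 at day 3 (exact p = 0.00794, adjusted p = 0.0381). Without the pair of libraries it was −1.21 and did not pass (adjusted exact p = 0.0544), and it passed in 12 of 27 runs that each left out 1 sample. At days 7, 14 and 21 the differences were −0.55, −0.27 and −0.10, and none passed. The ratio of Bnip3 to Fundc1 was lower at day 3 by −0.61 (exact p = 0.0159), which did not pass the correction (adjusted p = 0.0544).

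Tfeb (ENSMUSG00000023990, chr17:47737030-47792419, plus strand) encodes a transcription factor that activates genes of lysosomes and autophagy. Its FPKM was 17.01, 13.5, 15.4, 14.96 and 21.4 without injury and 12.03, 12.3, 13.03, 10.05 and 11.6 at day 3. The lowest, median and highest of day 7 were 9.23, 12.1 and 16.7, and at day 14 they were 10.6, 12.9 and 16.5. Day 21 samples were at 13.05, 14.6, 15.5, 17.1 and 16.5. The day 3 samples lay just below the uninjured range and the later groups overlapped it.

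Tfeb differed from no injury by −0.43 at day 3 (SE 0.15, adjusted p = 0.0230) and −0.39 at day 7 (SE 0.15, adjusted p = 0.0467), and with a common sum both turn positive, at 0.35 and 0.30. The day 14 and day 21 values were −0.32 and −0.08, neither called, and these turn to 0.14 and 0.10 with a common sum, as day 21 does with quantile normalization (0.0113). Set beside the median gene with a common sum, Tfeb was at −0.27, −0.28, −0.23 and −0.04. The day 7 call was lost without the pair of libraries (−0.32, adjusted p = 0.120), and it was made in 5 of 11 alternatives and in 13 of 27 fits that each left out 1 sample.

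Across the pathway, a list of 75 autophagy genes that includes these 10 was described in the same way. All 75 were tested. In order of time, 5 were called higher and 21 lower, 2 and 14, 2 and 13, and none and 2, with 17 of 75 (22.7%) at an unadjusted p under 0.05 at day 21, beside 19.8% of all tested genes. These calls make up 34.7%, 21.3%, 20.0% and 2.67% of the list, beside 43.2%, 29.4%, 20.3% and 3.43% of all tested genes. Shares by direction follow, and their difference from all tested genes was not tested. Called lower were 21 of the 75 at day 3, and 18.7% and 17.3% of the list at days 7 and 14, beside 19.8%, 14.4% and 11.3% of all tested genes, and called higher were 6.67%, 2.67% and 2.67%, beside 23.4%, 15% and 9.02%. Rescaled to a common sum, the counts higher and lower were 25 and 2, 24 and 1, 4 and 1, and none and none. On that scale 47.5%, 43.6%, 14.3% and 0.437% of all tested genes were higher, and 2.21%, 1.44%, 0.8% and 0.0547% lower. With quantile normalization they were 4 and 31, 1 and 12, 3 and 10, and none and none, and the 31 are 41.3% of the list, beside 25.5% of all tested genes. Leaving out the pair of libraries gave 7 and 16, 1 and 10, 3 and 13, and none and 5, in a fit that called 43.3%, 23.3%, 24.03% and 4.80% of all tested genes. For day 21 against day 3, with all samples, 7 of the 75 were higher and 6 lower (17.3% called), beside 9.23% and 16.2% of all tested genes. These counts were 1 and 16 with a common sum, beside 1.19% and 33.3%. With quantile normalization they were 13 and 5, beside 14.4% each way.

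By role, and beside 23.4% of all tested genes called higher and 19.8% lower at day 3, the initiation complex had 4 of 5 genes called lower at day 3, among them Ulk2, a kinase related to Ulk1, at −0.86 (adjusted p = 0.00143). The lipid kinase complex had 1 of 8 called, higher. Membrane supply had 1 of 9 higher, Vmp1, a membrane protein of the endoplasmic reticulum, at 0.42, and 2 lower. Conjugation of ATG8 proteins had 3 of 10 lower, and the ATG8 proteins themselves 1 of 5 lower and 1 higher, Gabarap, at 0.54. Cargo receptors had 2 of 8 lower and mitophagy genes 5 of 11 lower. Fusion with the lysosome had 3 of 13 lower, and lysosomal regulators had 2 of 6 higher and 1 lower. After rescaling to a common sum, 47.5% of all tested genes were called higher and 2.21% lower at day 3. None of these 9 groups then had more genes lower than higher. Initiation had none called, mitophagy genes had 4 higher and 1 lower, cargo receptors 2 and 1, and fusion and conjugation 4 and none each. With quantile normalization initiation had 4 lower, membrane supply 6 lower and 1 higher, mitophagy 6 lower, fusion 6 lower and conjugation 4 lower. Lysosomal regulators had 2 higher and 2 lower, ATG8 proteins 1 and 1, cargo receptors 2 lower, and the lipid kinase complex none called. In that fit 18.96% of all tested genes were called higher and 25.5% lower. On the common-sum scale Ulk2 was −0.12 and not called, while Vmp1 (1.23) and Gabarap (1.36) were called higher.

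Optn, a cargo receptor that also serves mitophagy, had the lowest log2 difference at every time among the genes of the list outside the 10 that were called. Its FPKM was 26.5 ± 1.55 (SD, n = 5) without injury. In order of time it was 9.69 ± 2.29 (n = 5), 11.1 ± 3.96 (n = 6), 12.8 ± 2.36 (n = 6) and 14.3 ± 2.32 (n = 5). The log2 differences were −1.39, −1.25, −1.01 and −0.86, each called, the last at adjusted p = 0.0151. Rescaled values were −0.63 (adjusted p = 0.0134), −0.58 (adjusted p = 0.0208), −0.57 and −0.69, the last pair not called. The day 21 call of Optn was also lost with quantile normalization, where none of the 75 was called. With 1 sample left out, the number of the 75 called at day 21 fell to 0 at the lowest.

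Lamp2, a lysosomal membrane protein, and Tfe3, a transcription factor related to Tfeb, were higher in the early samples. Lamp2 stood at 6.20 ± 0.843 FPKM without injury and 10.7 ± 0.845 at day 3, a log2 difference of 0.70, followed by 0.69 at day 7 and 0.45 at day 14. Tfe3 was 1.27 ± 0.198 FPKM without injury and 2.74 ± 0.617 at day 3, a difference of 0.71 with 0.36 at day 7. Rescaled to a common sum, Lamp2 was 1.51, 1.41 and 0.92, and Tfe3 1.49 and 0.998, all called. On the deposited scale the day 7 call of Tfe3 was at adjusted p = 0.0465. With quantile normalization, 1 of the 6 lysosomal regulators was called higher at day 7, in place of 2, beside 11.6% of all tested genes. The list of 75 also had 1 higher at day 7, in place of 2, with no filter, with only the 2 groups compared and without the pair of libraries. These fits called 5.75%, 9.80% and 12.4% of their tested genes higher. Lamp1, another lysosomal membrane protein, differed by −0.90 at day 14 (adjusted p = 0.00841) and by −0.43 with a common sum, not called. Nbr1, a cargo receptor, differed by 0.36 at day 14 and by 0.83 with a common sum, both called.

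Among the lower genes of the list, Mul1, a mitochondrial ubiquitin ligase, differed by −0.73 at day 3 and −0.59 at day 7, and with a common sum these turn to 0.02 and 0.08. Calcoco1, an autophagy receptor, differed by −0.67 at day 3, and with a common sum this turns to 0.10. Atg4d, a protease that processes ATG8 proteins, differed by −0.66 at day 7 and −0.78 at day 14, and by −0.06 and −0.41 with a common sum, not called. Rab7, a small GTPase of late endosomes, differed by −0.64 at day 7 and turns to 0.08 with a common sum.

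The genes most like each of the 10 over the 27 samples were named by Pearson's r of log2(FPKM + 1), as a description. Samples of a group share their time after injury and the scaling. They were Slc30a9 for Pink1 (r = 0.958), Fxr1 (0.943) and Lonp2 (0.929) for Bnip3, and Stat5b for Ulk1 (0.920). Map1lc3a had lower values, with Hdac4 at 0.848 and Enho at 0.843, and Gabarapl1 the lowest of the 10, with Gm6055 at 0.775 and Cdc37 at 0.766. Map1lc3b was nearest to Trappc6b (0.908) and Eif2s2 (0.892), Fundc1 to Capza2 (0.945) and March5 (0.915), and Tfeb to Mpst (0.897) and Drap1 (0.894). Becn1 was nearest to Pcyt1a (0.893) and Tesk1 (0.883), and Sqstm1 to Psmc2 (0.804) and Eif2b5 (0.803). With the group means taken off, r for the genes named here ran from 0.738 (Gm6055) to 0.916 (Tesk1). Between the 10 genes themselves, r was 0.879 for Pink1 and Tfeb, 0.801 for Ulk1 and Bnip3, 0.798 for Ulk1 and Pink1, and 0.755 for Map1lc3b and Fundc1. Within groups, these were 0.884, 0.603, 0.430 and 0.535.

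Promoter sequences from RefSeq (GRCm38.p6, 250 bases before to 50 after the start) were matched for 8 of the 10 genes, all but Map1lc3a and Becn1. They were searched on both strands for 4 motifs. Of 32817 promoters, 7.15% hold the motif CACGTG, which was found in Bnip3 alone. The shorter motif ACGTG, which lies inside the first, is held by 19.6% of promoters and was likewise found only there. The motif GTAAACA is held by 3.65% and was found in none of the 8 genes. The last motif, TGACNNNGC, is held by 12.4% and was found in Map1lc3b alone. The promoters that hold a match are shown, since these letters are the ones searched, with the match in capitals. That of Bnip3 is chr7:138909457-138909756 on the minus strand, and that of Map1lc3b is chr8:121590188-121590487 on the plus strand.
Bnip3: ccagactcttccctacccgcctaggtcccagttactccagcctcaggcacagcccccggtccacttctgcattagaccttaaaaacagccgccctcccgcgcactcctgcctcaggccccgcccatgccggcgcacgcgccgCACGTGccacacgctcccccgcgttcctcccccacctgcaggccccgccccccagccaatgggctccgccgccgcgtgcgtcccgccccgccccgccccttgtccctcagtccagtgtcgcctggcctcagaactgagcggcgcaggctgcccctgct
Map1lc3b: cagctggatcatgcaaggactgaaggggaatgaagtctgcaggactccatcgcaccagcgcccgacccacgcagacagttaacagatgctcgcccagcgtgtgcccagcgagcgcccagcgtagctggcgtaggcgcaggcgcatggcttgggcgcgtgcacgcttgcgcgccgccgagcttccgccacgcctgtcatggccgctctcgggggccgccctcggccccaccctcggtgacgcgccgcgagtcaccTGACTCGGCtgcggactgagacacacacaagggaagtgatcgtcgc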

How the data were processed

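Per the labels, polyadenylated RNA of tibialis anterior muscle was sequenced from 27 samples with libraries that do not keep the strand. The authors deposited gene FPKM. The submitters' processing notes name HISAT2 2.0.5 and featureCounts 1.5.0-p3, and the genome build is not given in the sources used here. The coordinates of all 10 genes equal GENCODE M21 on GRCm38. FPKM multiplied by gene length gave whole reads within a tolerance of 0.01, from which depth (14376395 to 24436763 reads) was taken. The fewest reads of any of the 10 genes in any sample were 154, for Becn1, and Fundc1 had fewer reads than Becn1 in 23 of 27 samples (164 to 597).

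A gene was tested when 5 or more samples reached an FPKM of 0.5, which 14630 of 54532 did. Values were log2(FPKM + 1) with a pseudocount of 1. The deposited FPKM were not rescaled. A single limma 3.58.1 fit (R 4.3.3) with 5 group means, moderated variance with a trend, 2-sided tests and Benjamini-Hochberg adjustment over all tested genes within each of 5 comparisons gave calls at adjusted p under 0.05. Within-sample ratios used FPKM with no pseudocount and a 2-sided exact permutation test, adjusted over 24 tests (6 pairs at 4 times). Python 3.11.15 with pandas 2.3.3, numpy 2.4.6, scipy 1.17.1 and matplotlib 3.10.9 did the rest. The procedure was tested on simulated data.

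The members and the gene lists were chosen with earlier results of these data known. Named genes outside the 10 are up to 4 of the autophagy list with the largest called change in each direction and comparison with no injury, and up to 2 genes with the highest r for each member. Alternatives were a pseudocount of 0.1 (1 for ratios), no filter, FPKM of at least 1, FPKM rescaled to a common sum (TPM), quantile normalization, a replicate block by number or by letter, a fit of only the 2 groups compared, sample quality weights, voom on recovered reads, leaving out day 3 replicate 5 and day 7 replicate 5 together, and leaving out each sample in turn. Of marker lists for 9 cell types, 8 are described by counts and by summed FPKM in some or all groups.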

Additional observations from a re-analysis of the deposited data

Results flagged for a closer look

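In 3 of 50 groups of samples tested (10 genes in 5 groups), 1 sample stood apart from the others of its group by Dixon's test, where chance gives about 1 in 20. Map1lc3a had 226 FPKM in day 21 replicate 5, with the other samples of that group at 446 to 496. Map1lc3b had 17.1 FPKM in the same library, with the others at 23.7 to 25.4. Fundc1 had 11.999 FPKM in day 7 replicate 3, the highest of its group.

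For 3 genes the change from no injury at day 21 differed from that at day 3, tested as the difference of day 21 against day 3. The log2 difference was 0.46 for Ulk1 (limma adjusted p = 0.0216), 1.20 for Pink1 (limma adjusted p = 0.00164) and 0.77 for Bnip3 (limma adjusted p = 0.0165). With a common sum these were −0.08, 0.58 and 0.16, and of these 3 Pink1 alone was called, beside 1.19% of all tested genes called higher and 33.3% lower.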

How the results depend on the processing

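Over the alternatives other than leaving out 1 sample, 464 log2 differences of the 10 genes kept their direction and their side of the threshold, 33 passed only under the alternative, 23 no longer passed and 30 changed sign. All but 1 of these 30 were under a scaling alternative. Depth is lowest for Becn1 (154 to 1062 reads per sample) and Fundc1 (164 to 597). For each result below that changed, the cause was not tested.

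With FPKM rescaled to a common sum, against no injury, the log2 difference turned positive for Becn1 (0.38, 0.57 and 0.0308 at days 3, 7 and 14), Map1lc3b (0.40 and 0.31 at days 3 and 7), Sqstm1 (0.40, 0.52 and 0.28 at days 3, 7 and 14), Fundc1 (0.26 and 0.19 at days 3 and 7), Tfeb (0.35, 0.30, 0.14 and 0.10 at days 3, 7, 14 and 21), Map1lc3a (0.72 at day 3), Bnip3 (0.19 at day 7) and Gabarapl1 (0.34 and 0.0498 at days 14 and 21). For day 21 against day 3 it turned negative for Ulk1 (−0.0828), Map1lc3b (−0.59), Sqstm1 (−0.42), Fundc1 (−0.46) and Tfeb (−0.25). Of the 10 genes, 2 were called at each of days 3, 7 and 14 and 0 at day 21, and of the 75 autophagy genes 25, 5 and 0 at days 7, 14 and 21. Of all tested genes 49.7%, 44.99%, 15.1% and 0.492% were called in order of time. With quantile normalization, Map1lc3a at day 3 (0.18), Sqstm1 at days 7 (0.14) and 14 (0.13), Gabarapl1 at day 14 (0.0905), Tfeb at day 21 (0.0113) and Becn1 for day 21 against day 3 (0.0654) changed sign. There 2 of the 10 were called at day 7 and 0 at day 21, and 0 of the 75 at day 21, beside 26.3% and 2.01% of all tested genes.

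Without day 3 replicate 5 and day 7 replicate 5, Map1lc3b for day 21 against day 3 was −0.0595, 3 of the 10 were called at day 7 and 5 of the 75 at day 21, where 23.3% and 4.80% of all tested genes were. The log2 ratio of Bnip3 to Fundc1 at day 7 turned to 0.0809 and that of Sqstm1 to Map1lc3b at day 3 to 0.0375. The ratio of Map1lc3b to Map1lc3a at day 7 passed (−1.08, adjusted exact p = 0.0381) and that of Pink1 to Fundc1 at day 3 did not (−1.21, adjusted exact p = 0.0544).

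With no filter, 3 of the 10 were called at day 7 and 0 at day 21, and 1 of the 75 at day 21, beside 11.1% and 0.792% of all genes tested in that fit. With FPKM of at least 1, 4 of the 74 that were tested of the 75 were called at day 21, beside 4.48% of all tested genes. When the fit held just the 2 groups of a comparison, 3 of the 10 were called at day 7, 2 at day 21 and 5 for day 21 against day 3, and 8 of the 75 at day 7 and 8 at day 21. Of all tested genes, 19.8%, 10.1% and 28.2% were called in these comparisons. With quality weights, 4 of the 10 were called at day 21, and of the 75 41 at day 3, 15 at day 21 and 28 for day 21 against day 3. Of all tested genes, 56.4%, 16.9% and 44.2% were called there, beside 54.7%, 20.0% and 37.3% of the 75. With voom, 0 of the 10 and 1 of the 75 were called at day 21, beside 1.93% of all tested genes. With a pseudocount of 1 the ratio of Bnip3 to Fundc1 at day 3 passed (−0.63, adjusted exact p = 0.0317).

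The replicate block treats samples with the same number or letter as a pair. With group means taken off, samples of different groups with the same number had a mean r of 0.022 over 51 pairs (−0.52 to 0.57). The mean was −0.003 over 240 pairs with different numbers. A small mean r does not settle whether samples are paired. With the letter as a replicate block, 2 of the 10 were called at day 21, and 5 of the 75 at day 21 and 8 for day 21 against day 3 (6.67% and 10.7% of the 75), beside 8.43% and 19.99% of all tested genes. With the number, the pair differences of the ratio of Bnip3 to Fundc1 at day 7 averaged 0.0577, which changed sign.

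Leaving out 1 sample at a time moved 9 log2 differences of the 10 genes to the other sign, and 37 no longer passed. The lowest and highest values were −0.13 and 0.0873 for Becn1 and −0.0595 and 0.13 for Map1lc3b for day 21 against day 3, −0.17 and 0.00815 for Becn1 at day 7, and −0.14 and 0.0109 for Tfeb at day 21. Over all tested genes, 3251 to 5220 were called at day 7 and 1895 to 3358 at day 14. The range was 190 to 707 at day 21 and 2316 to 4076 for day 21 against day 3. The calls of the 10 ran from 3 to 6 at day 7 (3 without no injury replicate 2, 4 or 5, or day 7 replicate 1, 4 or 5). They ran from 0 to 1 at day 21 (0 without no injury replicate 2, 3, 4 or 5, or day 21 replicate 1, 2, 4 or 5). The Ulk1 difference of day 21 from day 3 was not called without day 3 replicate 4 (0.42) or day 21 replicate 2 (0.43). The day 3 call was lost for Map1lc3b without day 3 replicate 5, for Fundc1 without no injury replicate 2 or 4, and for Tfeb without no injury replicate 5 or day 3 replicate 4. Of the 75, the count ran from 0 to 5 at day 21 and from 5 to 15 for day 21 against day 3 (6 without day 3 replicate 3, 5 without replicate 4).

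The log2 ratios kept their sign without any 1 sample for Map1lc3b to Map1lc3a (days 7, 14 and 21: −1.08 to −0.58, −1.35 to −1.23 and −1.25 to −1.08), Gabarapl1 to Map1lc3a (days 14 and 21: −0.91 to −0.74 and −0.996 to −0.81), Pink1 to Fundc1 at day 3 (−1.33 to −1.01), Bnip3 to Fundc1 at day 3 (−0.70 to −0.54), Sqstm1 to Map1lc3b at day 14 (0.34 to 0.47) and Ulk1 to Becn1 at day 7 (−0.86 to −0.52). Of the 5 ratios that passed, the 4 with Map1lc3a did so in 17 of 27 runs, and were lost without any 1 of the uninjured or day 21 samples. Pink1 to Fundc1 at day 3 passed in 12, and was lost without any 1 of the uninjured, day 3 or day 21 samples. Adjusted exact p ran from 0.0317 to 0.0762 for each of the 5. Fewer samples raise the smallest p that the exact test can give, and the adjustment over 24 tests carries this to ratios at other times. The sign changed for Bnip3 to Fundc1 at days 7 (−0.10 to 0.0809) and 21 (−0.0460 to 0.10), Pink1 to Fundc1 at day 21 (−0.25 to 0.0121) and Sqstm1 to Map1lc3b at day 3 (−0.0810 to 0.0696).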

Other observations

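Other marker lists were described in the same way. Over all tested genes on the deposited scale, 23.4%, 15%, 9.02% and 1.74% were called higher than without injury in order of time. Called lower were 19.8%, 14.4%, 11.3% and 1.69%. With a common sum, 14.3% and 0.437% were called higher at days 14 and 21. Counts of the lists were not tested against these shares. Of 8 fibroblast and fibro-adipogenic markers, 7 were higher than without injury at days 3, 7 and 14 and 3 at day 21, and their summed FPKM had a mean of 107 without injury and 649 at day 3, with Col1a1 the most abundant over the 27 samples, as for each list that follows. Rescaled to a common sum, 8, 8, 7 and none of the 8 were higher. Of 7 satellite cell and myoblast markers, 6, 5, 5 and 3 were higher in order of time, with a summed mean of 23.3 without injury and 376 at day 3, and Myog the most abundant over the 27 samples, though at 1.78 without injury and 153 at day 3. Rescaled, the counts were 7, 5, 5 and 1. Of 7 endothelial markers, 3, 2, 1 and 1 were lower, with Cdh5 the most abundant and a summed mean of 107 without injury and 78.9 at day 3. Rescaled to a common sum, 2 of these 7 were higher and 1 lower at each of days 3 and 7. On that scale 47.5% and 43.6% of all tested genes were higher at these times, and 2.21% and 1.44% lower. All 3 tested of 5 neutrophil markers were higher at day 3 and 2 at day 7, with a summed mean of 2.57 without injury and 27.3 at day 3, S100a8 the most abundant and Ly6g and Mmp8 at 0 in the uninjured samples. All 3 tested of 4 adipocyte markers were higher at day 7 and none at the other times, with Adipoq the most abundant and a summed mean of 1.16 without injury and 16.4 at day 7. None of 5 erythroid markers (Hbb-bs the most abundant, summed mean 377 without injury and 242 at day 21) was called by limma on the deposited scale, where 1 at day 21 had an unadjusted p under 0.05. Rescaled to a common sum, 4 of the 5 were lower at day 21 than at day 3 (median −0.94), beside 33.3% of all tested genes. After day 3, the myofibre list had 4 of 10 lower at day 7, 1 at day 14 and none at day 21, and the macrophage list had 9, 2 and none of 10 higher. Rescaled to a common sum, no myofibre marker was lower after day 3, and 10, 2 and none of the macrophage markers were higher.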
